A study of Mus musculus with 39 samples.

Results

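The genes described here are 10 tetraspanins: Cd9, Cd63, Cd81, Cd82, Cd37, Cd53, Cd151, Tspan3, Tspan4 and Tspan14. They were taken by symbol, and all 10 matched a single row in the female table of 46333 genes and in the male table of 54532 genes. Every member passed the filter on low counts (CPM, counts scaled to library depth, above 1 in 3 or more of the compared libraries) in every comparison.

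Tetraspanins are small proteins that cross the membrane several times and hold other membrane proteins together in patches. Their partners include integrins, the immunoglobulin-like proteins Ptgfrn and Igsf8, and the sheddase Adam10, which cuts surface proteins and is carried to the surface by a subgroup that includes Tspan14. Cd63 sits in late endosomes and lysosomes, Cd9 and Cd81 mainly at the cell surface, and all of these are enriched in exosomes. In microglia, Cd9 and Cd63 are known as markers of the disease-associated state (DAM) that is seen around amyloid plaques.

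RNA was sequenced from Cd11b+ cells taken with magnetic beads from the cerebrum of wildtype (WT) and 5XFAD mice. 5XFAD mice carry mutant human transgenes that the Thy1 promoter drives in neurons, so that amyloid plaques form. Mice entered treatment at 4 months of age. Chronic intermittent hypoxia (CIH) alternated inspired oxygen between 21% and a low level at 90 s intervals, the low level being 6.5% for 8 h a day in the sample records and slightly lower with a longer day in the study's methods. Normoxia (NX) mice received room air at 21% oxygen. Females were treated for 6 months and were 10 months old at the end, and males were treated for 4 months and were 8 months old. The 39 libraries comprised 4 F WT NX libraries and 5 each of F 5XFAD NX, F WT CIH, F 5XFAD CIH, M WT NX, M 5XFAD NX, M WT CIH and M 5XFAD CIH. The comparisons ask how microglial transcription responds to amyloid, to CIH and to both. Sex, age and length of exposure cannot be told apart here, and no test between the sexes was made. The labels do not say that the libraries of a group came from separate animals, while the study's methods describe independent samples in each group. The p-values set a difference against the spread between these libraries.

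Total counts were 14731683 to 25906121 in females and 13457293 to 23095627 in males. In females, F 5XFAD NX 4 stood with the WT libraries on the first principal component, at 42.5 against -69.8 to -35.9 in the other 4 libraries of its group, and it had counts in 38551 genes where those had counts in 21697 to 22148. F WT NX 1 lay at 27.9, against 45.5 to 51.0 in the other 3 libraries of F WT NX, and had the highest DAM sum of that group (27062 CPM against 15780 to 19506). In males, M 5XFAD NX 4 and M 5XFAD NX 5 lay at 1.94 and 3.65, where the other 3 libraries of that group lay at -80.1 to -78.8. Calls of the tetraspanins under NX are given with and without these libraries. Homeostatic microglia markers summed to between 28255 and 47131 CPM in every library, so the labelled cell type matched its markers. Markers of other cells reached at most 1266 CPM for neutrophils, 1004 CPM for astrocytes, 599 CPM for oligodendrocytes, 332 CPM for border macrophages, 307 CPM for endothelium, 234 CPM for erythroid cells, 15.7 CPM for lymphocytes and 14.8 CPM for neurons in any library. Because these are bulk samples, fewer cells of a type and less RNA per cell cannot be told apart.

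All 10 tetraspanins were readily detected, and the lowest count of any member in any library was 909 (Cd151). Between genes, levels were compared as FPKM (reads scaled to gene length and to library depth) and only within a sex, since the 2 tables use different gene lengths (989 bases for Cd63 in females and 3682 in males). In F WT NX, Cd9 was highest at 665 ± 77.0 FPKM (SD, n = 4), followed by Cd81 at 561 ± 33.6, and the libraries of these 2 genes overlapped. Cd37 came next at 355 ± 23.5 FPKM, and Cd63 (232 ± 48.5) and Cd53 (229 ± 18.4) did not separate. Tspan14 stood at 169 ± 7.17 FPKM and Cd82 at 129 ± 6.86, above Tspan3, Tspan4 and Cd151, which lay between 42.1 and 64.9 FPKM on average. In F 5XFAD CIH the order changed at the top, to Cd9 at 1368 ± 167 FPKM (n = 5), Cd63 at 754 ± 133 and Cd81 at 517 ± 20.1, with no overlap between neighbours.

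In M WT NX, Cd81 was highest at 632 ± 53.3 FPKM (n = 5), above Cd9 at 417 ± 35.9 and Cd53 at 417 ± 49.5, which overlapped. Cd63 ranked 7 there at 65.6 ± 12.9 FPKM, overlapping with Tspan4. The male ranks and shares of Cd63 rest on a length of 3682 bases, against 989 in females, and a shorter length gives a higher FPKM. Mean Cd63 CPM, which uses no length, was 243 in M WT NX and 218 in F WT NX. In M 5XFAD CIH, Cd9 was highest at 999.6 ± 172 FPKM, overlapping with Cd81 at 687 ± 73.6, and Cd63 ranked 4 at 301 ± 91.2. The share of the 10 genes' summed FPKM, which no scaling between libraries can change, moved in the same way. Cd9 made up 26.4% of the sum in F WT NX (24.8% to 28.4%) and 38.9% in F 5XFAD CIH (36.7% to 40.2%). In males it made up 19.4% in M WT NX (18.2% to 21.1%), 17.8% in M WT CIH, 32.9% in M 5XFAD NX (31.7% to 33.9%) and 33.8% in M 5XFAD CIH. M 5XFAD NX 4 and M 5XFAD NX 5 held 33.5% and 31.7%. The Cd63 share in these 2 libraries was lower, at 7.51% and 7.65% against 9.41% to 10.6% in the other 3, and still above the 2.30% to 3.61% of M WT NX. In F 5XFAD NX the Cd9 share ran from 25.8% in F 5XFAD NX 4 to 40.2%.

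**Figure D1:**
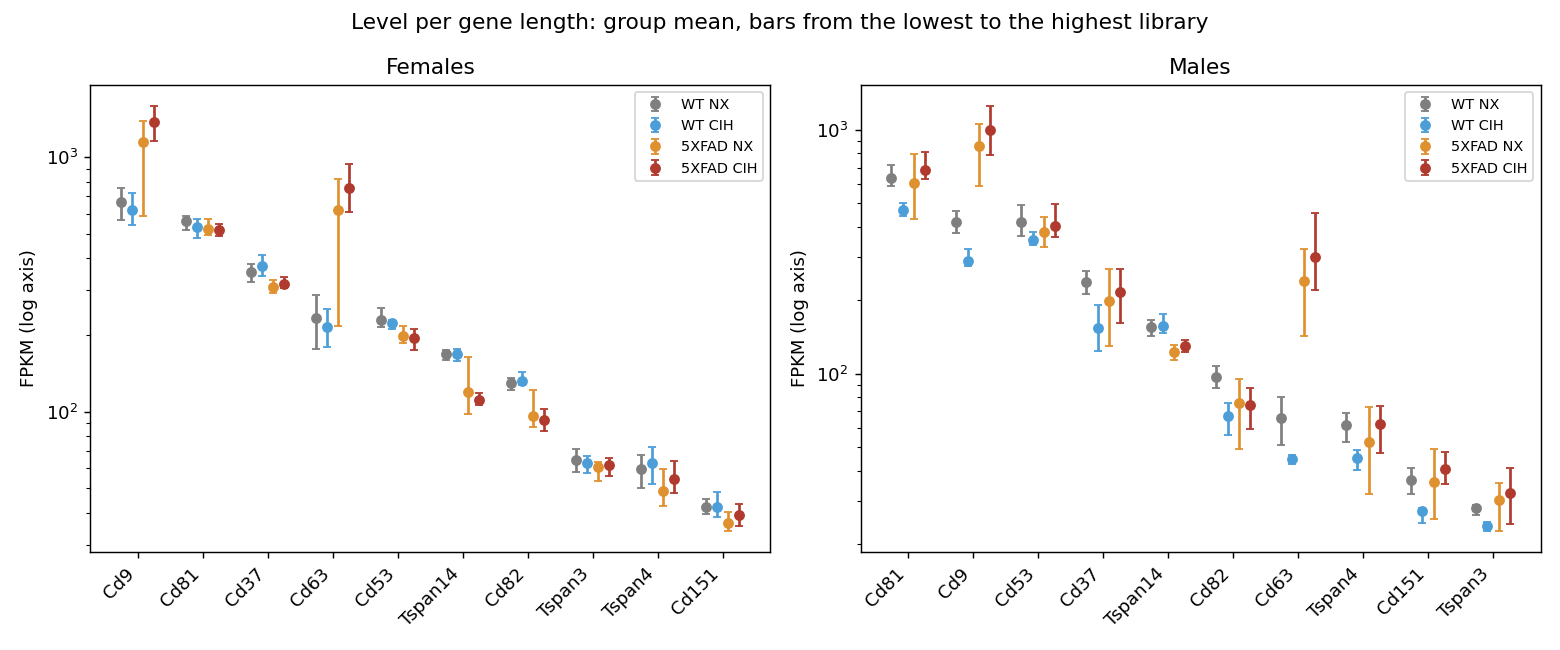
Level of each tetraspanin in FPKM on a log axis, females left and males right, genes ordered by their mean in WT NX. Points are group means and bars run from the lowest to the highest library (n = 4 in F WT NX, 5 in the others). Cd9 and Cd63 stand higher in the 5XFAD groups of both sexes, while the other genes keep closer to their WT level.

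Cd9, a surface tetraspanin that binds integrins, was higher in 5XFAD than in WT in all 4 genotype comparisons. In CPM, scaled between libraries by TMM factors, the 4 F WT NX libraries read 857, 642, 747 and 771. The 5 F 5XFAD NX libraries read 1761, 1894, 1467, 609 and 1773. A single library, F 5XFAD NX 4 at 609 CPM, lay below all of F WT NX, and the other 4 lay above. Cd9 log2FC (5XFAD over WT) was 0.99 ± 0.29 (SE) with an FDR of 0.0481 (edgeR quasi-likelihood test, Benjamini-Hochberg over all genes), and 1.18 ± 0.12 with an FDR of 5.27e-05 without F 5XFAD NX 4. Under CIH, F WT CIH read 813, 609, 594, 756 and 698 CPM, and F 5XFAD CIH read 2040, 1619, 1409, 1650 and 1965 CPM. These groups did not overlap, and Cd9 rose by 1.34 ± 0.11 (log2FC, FDR 6.72e-07), which is 2.53-fold.

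In males, Cd9 read 775, 799, 952, 861 and 904 CPM in M WT NX, and 2202, 1965, 2138, 1380 and 1204 CPM in M 5XFAD NX. The lowest values of the 5XFAD group came from M 5XFAD NX 4 and M 5XFAD NX 5, and both were still above every WT library. Cd9 log2FC was 1.05 ± 0.17 (FDR 0.000822), and 1.29 ± 0.09 (FDR 9.13e-08) without these 2 libraries. M WT CIH read 670, 598, 580, 571 and 579 CPM and M 5XFAD CIH read 1908, 1619, 2004, 2206 and 2620 CPM. The log2FC between these groups was 1.80 ± 0.12 (FDR 3.64e-08), a 3.47-fold difference.

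Cd63, the late endosomal and lysosomal tetraspanin, showed a larger difference than Cd9 in each of the 4 comparisons, although the difference between the 2 genes was not tested. F WT NX read 270, 165, 237 and 200 CPM, and F 5XFAD NX read 878, 839, 568, 187 and 915 CPM. F 5XFAD NX 4, at 187 CPM, was inside the WT range, and the other 4 libraries were at least 568 CPM. Cd63 log2FC was 1.63 ± 0.40 (FDR 0.0322) with all libraries, and 1.87 ± 0.18 (FDR 5.73e-05) without F 5XFAD NX 4. F WT CIH read 198, 184, 163, 219 and 234 CPM, whereas F 5XFAD CIH read 1000.1, 623, 650, 811 and 871 CPM, and Cd63 rose by 2.00 ± 0.14 (FDR 8.84e-08), a 4.01-fold difference.

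In males, Cd63 read 227, 213, 187, 292 and 298 CPM in M WT NX and 1152, 1034, 1234, 557 and 524 CPM in M 5XFAD NX, with M 5XFAD NX 4 and M 5XFAD NX 5 lowest but above all WT libraries. The log2FC was 1.89 ± 0.25 (FDR 0.000205), and 2.23 ± 0.14 (FDR 2.43e-08) without those 2. M WT CIH read 172, 172, 160, 157 and 166 CPM and M 5XFAD CIH read 1050, 809, 977, 1064 and 1727 CPM. Cd63 log2FC under CIH was 2.77 ± 0.17 (FDR 1.31e-08), a 6.84-fold difference and the widest of the family.

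The male table also holds Cd63-ps, a processed pseudogene of Cd63, with 206 to 2319 counts, so reads could be split between the 2 copies. Its counts were 7.47% to 10.1% of those of Cd63 in every male library, and its log2FC in M WT CIH vs 5XFAD CIH was 2.85 ± 0.18 (FDR 2.00e-08). With Cd63-ps counts added to Cd63, the Cd63 log2FC was 1.88 under NX and 2.78 under CIH. Cd9-ps reached at most 6 counts in any library.

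**Figure D2:**
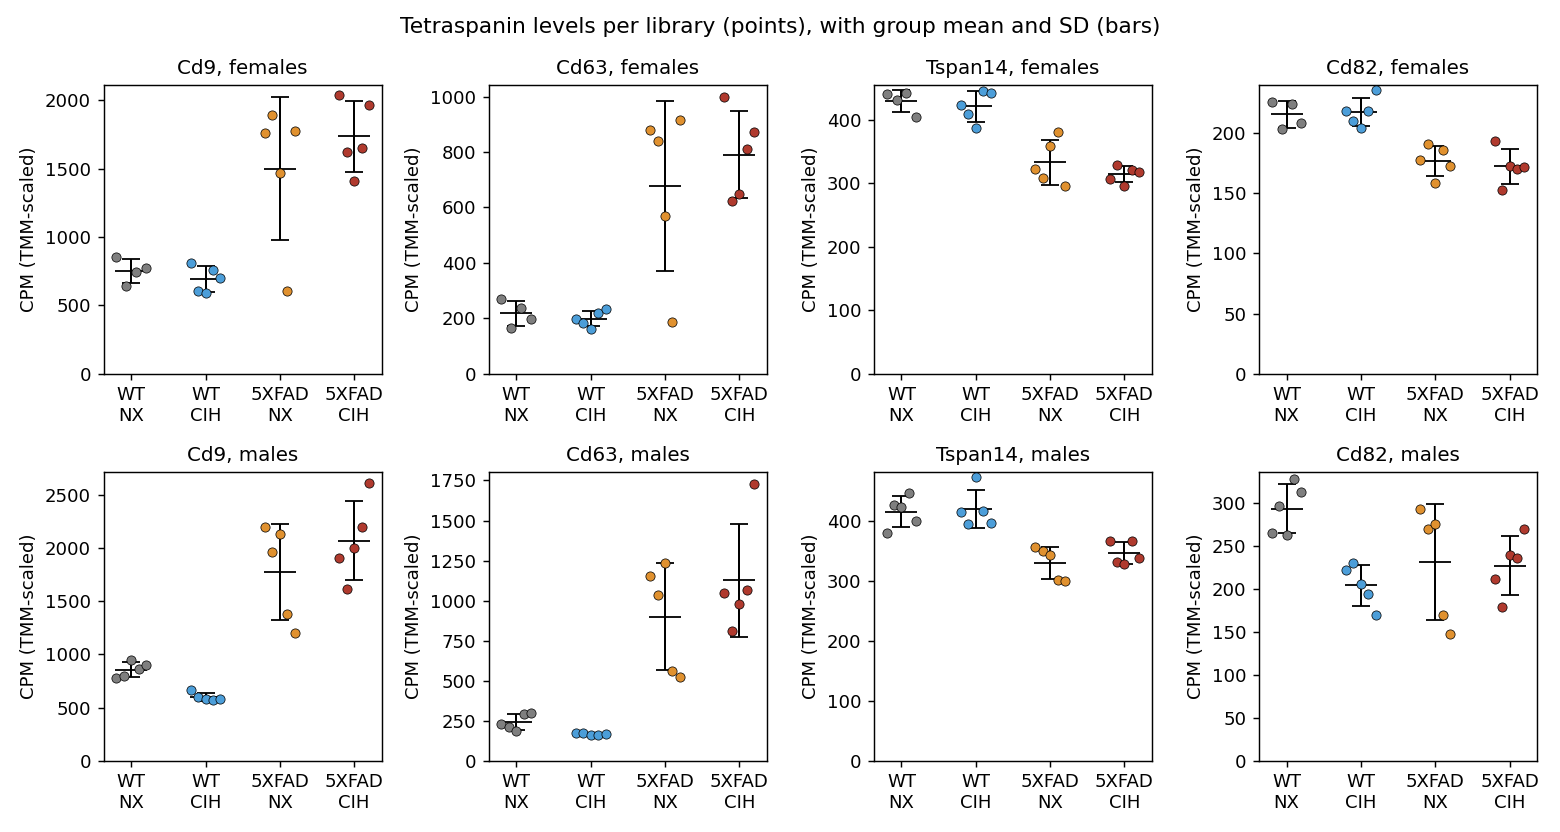
CPM (TMM-scaled, y axis) of Cd9, Cd63, Tspan14 and Cd82 in each library of the 4 groups, females above and males below. Points are libraries, the wide tick is the group mean and the error bar the SD. For Cd9 and Cd63 the low orange point in females is F 5XFAD NX 4 (609 and 187 CPM) and the 2 low orange points in males are M 5XFAD NX 4 and 5, while Tspan14 in 5XFAD lies below WT in both sexes.

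Tspan14, of the subgroup that carries Adam10, was lower in 5XFAD than in WT in all 4 comparisons, and no 5XFAD library overlapped with WT in any of them. F WT NX read 441, 431, 442 and 404 CPM, and F 5XFAD NX read 322, 308, 359, 381 and 296 CPM, with F 5XFAD NX 4 the highest of its group. Tspan14 fell by 0.37 ± 0.10 on the log2 scale (FDR 0.0425) in F WT NX vs 5XFAD NX, by 0.41 ± 0.06 (FDR 4.83e-05) in F WT CIH vs 5XFAD CIH, by 0.33 ± 0.10 (FDR 0.035) in M WT NX vs 5XFAD NX and by 0.26 ± 0.09 (FDR 0.0186) in M WT CIH vs 5XFAD CIH. In males the 5XFAD libraries ran from 300.3 to 356 CPM under NX and from 329 to 367 CPM under CIH, where WT libraries ran from 381 to 447 and from 395 to 474 CPM. As a ratio of 5XFAD to WT this was 0.754 to 0.832 over the 4 comparisons. Without F 5XFAD NX 4 Tspan14 fell by 0.43 ± 0.08 (FDR 0.00187) in females under NX, and without M 5XFAD NX 4 and 5 by 0.25 ± 0.09 (FDR 0.0367) in males. The Tspan14 call under NX held in 1 of 9 female and 2 of 10 male fits with a single library left out, and its FDR was 0.171 and 0.169 with the replicate number as a block and 0.112 and 0.0912 without a filter on low counts. In M WT CIH vs 5XFAD CIH it was 0.105 without the filter and 0.0572 without M WT CIH 3.

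Cd82, known as a suppressor of metastasis, was lower in female 5XFAD microglia. It read 203 to 225 CPM in F WT NX and 158 to 191 CPM in F 5XFAD NX, and 204 to 235 CPM in F WT CIH and 152 to 193 CPM in F 5XFAD CIH, with no overlap in either comparison. Cd82 fell by 0.28 ± 0.08 (FDR 0.0447) under NX and by 0.32 ± 0.07 (FDR 0.00134) under CIH on the log2 scale, and by 0.31 ± 0.07 (FDR 0.0068) under NX without F 5XFAD NX 4. The call under NX held in 1 of 9 fits with a single library left out. Cd82 also missed the FDR there with edgeR's likelihood ratio test (0.0605), without a filter on low counts (0.24) and with the replicate block (0.185). In males it did not pass the test, with a log2FC of -0.34 ± 0.18 (FDR 0.247) under NX, -0.0711 ± 0.0969 (FDR 0.618) under NX without M 5XFAD NX 4 and 5, and 0.16 ± 0.12 (FDR 0.260) under CIH.

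In F WT NX vs 5XFAD NX, 2 members were higher (Cd9 and Cd63) and 2 lower (Tspan14 and Cd82), where 13.9% of all 14513 genes tested passed in either direction (7.26% higher and 6.61% lower). Only Cd63 was a DEG (FDR below 0.05 and an absolute log2FC above 1), as were 4.40% of all genes in that direction. These calls rested on narrow margins: leaving out any single library other than F 5XFAD NX 4 left 0 members past the FDR, and leaving out F 5XFAD NX 4 kept the count at 4 with 2 DEGs, in a fit where 21.8% of all genes were higher and 22.2% lower, so that 4 of 10 lay near the share of all genes. Without F WT NX 1 the log2FC was 1.06 ± 0.33 for Cd9 (FDR 0.0752), 1.75 ± 0.46 for Cd63 (FDR 0.053), -0.35 ± 0.12 for Tspan14 (FDR 0.0822) and -0.26 ± 0.09 for Cd82 (FDR 0.0933), and 933 genes passed. In F WT CIH vs 5XFAD CIH, 2 members were higher (Cd9 and Cd63, both DEGs) and 2 lower (Tspan14 and Cd82), where 51.9% of genes passed (26.2% higher and 25.7% lower) and 8.83% were higher as DEGs. Cd81, Cd37, Cd53, Cd151, Tspan3 and Tspan4 did not pass in females, with log2FC between -0.14 and 0.07 under NX and between -0.05 and 0.17 under CIH. In F WT CIH vs 5XFAD CIH, DESeq2 also called Cd81 (FDR 0.0445) and Tspan3 (FDR 0.0454) as higher, the replicate block called Cd81 (FDR 0.0453), and library size alone called Cd37 (FDR 0.00375) and Cd53 (FDR 0.00984) as lower.

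Among males under NX, 3 of 10 members passed in M WT NX vs 5XFAD NX, 2 higher (Cd9 and Cd63, both DEGs) and Tspan14 lower, where 17.8% of 14834 genes passed (10.4% higher and 7.37% lower) and 5.94% were higher as DEGs. Without M 5XFAD NX 1 or M 5XFAD NX 3 the Cd9 log2FC was 0.96 and 0.98, below the limit for a DEG. Without M 5XFAD NX 4 and M 5XFAD NX 5, the count was 4, Tspan3 being added with a log2FC of 0.32 ± 0.08 (FDR 0.00728) in a fit where 17.9% of all genes were higher and 15.6% lower, and the log2FC of Cd81, Cd37, Cd151 and Tspan4 turned from negative to positive without passing. In M WT CIH vs 5XFAD CIH, 8 of 10 passed (7 higher, Tspan14 lower, and only Cd9 and Cd63 as DEGs) where 49.0% of 14793 genes did (25.3% higher and 23.7% lower, 11.8% higher as DEGs), so a pass there is common. Higher were Cd9 and Cd63 and, by smaller steps, Cd81 (0.56 ± 0.09, FDR 0.000191), Cd37 (0.51 ± 0.15, FDR 0.0113), Cd151 (0.59 ± 0.10, FDR 0.000176), Tspan3 (0.46 ± 0.12, FDR 0.00608) and Tspan4 (0.48 ± 0.12, FDR 0.00373). The same M WT CIH libraries enter M WT NX vs WT CIH, where these genes were lower under CIH. Mean CPM in M WT NX, M WT CIH and M 5XFAD CIH was 1832, 1365 and 2004 for Cd81. It was 842, 545 and 772 for Cd37, and 100.5, 75.4 and 112.7 for Cd151. For Tspan3 it was 121, 102 and 140, and for Tspan4 135, 99.0 and 137. Cd81, a partner of Cd9 in membrane patches, read 1290 to 1452 CPM in M WT CIH and 1835 to 2393 CPM in M 5XFAD CIH without overlap. The median log2FC of all genes in this comparison moved from -0.06 with TMM to -0.43 with library size alone, and on the latter scale Cd37, Tspan3 and Tspan4 no longer passed while Cd82 and Cd53 turned to -0.22 and -0.17.

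**Figure D3:**
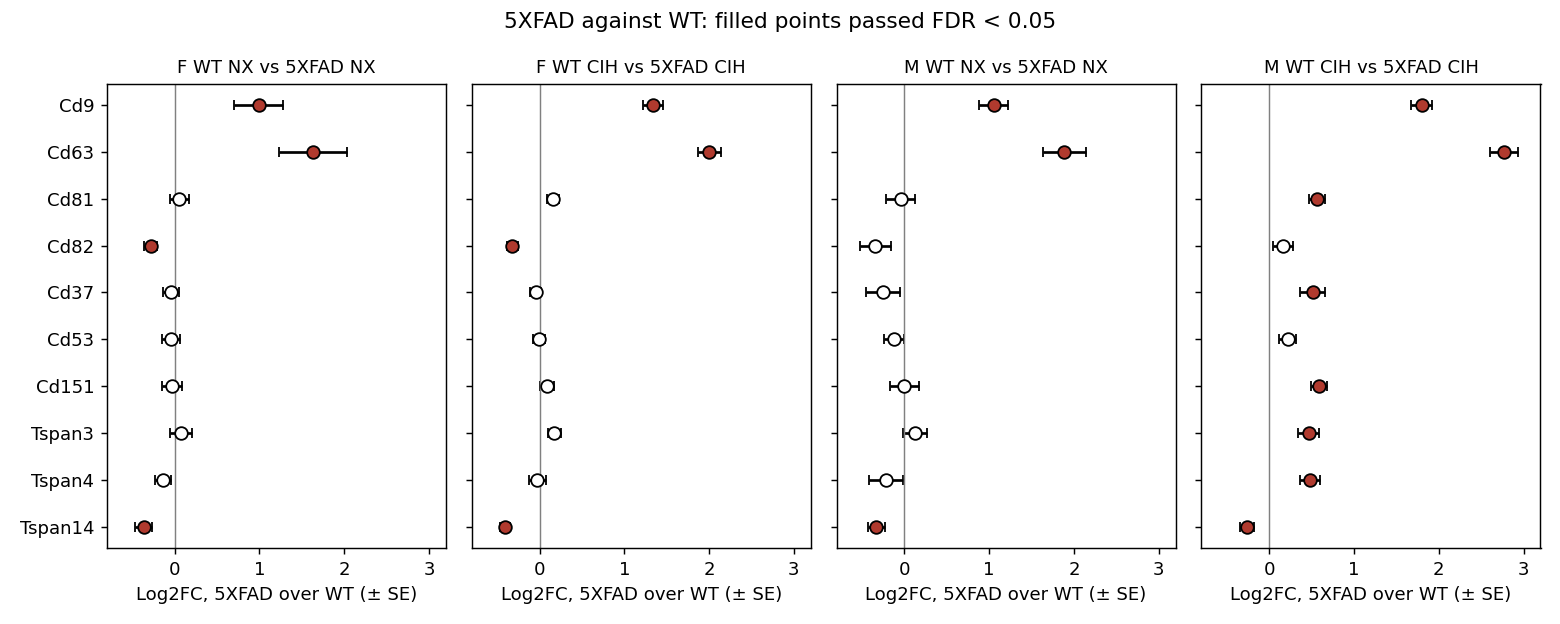
Log2FC of 5XFAD over WT (x axis, points ± SE) for the 10 tetraspanins in the 4 genotype comparisons. Filled points passed an FDR of 0.05. Cd9 and Cd63 lie to the right and Tspan14 to the left in all 4 panels, and the M WT CIH vs 5XFAD CIH panel has 8 filled points.

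Levels of other cell markers moved with genotype. The DAM list, from which members of this family were left out, summed to 15780 to 27062 CPM in F WT NX, and to 14295 CPM in F 5XFAD NX 4 against a group median of 97617 CPM, so this library was as low for DAM genes as for Cd9 and Cd63. M 5XFAD NX 4 and M 5XFAD NX 5 were part of a group whose DAM sum ran from 58466 to 111135 CPM, above M WT NX at 17786 to 24081. All 20 DAM genes were higher past the FDR in M WT NX vs 5XFAD NX, M WT CIH vs 5XFAD CIH and F WT CIH vs 5XFAD CIH, where 10.4%, 25.3% and 26.2% of all genes were. In F WT NX vs 5XFAD NX 14 of 20 were, where 7.26% of all genes were. Astrocyte markers summed to 133 to 182 CPM in M WT NX and 369 to 1004 CPM in M 5XFAD NX, and to 158 to 197 CPM in F WT CIH and 223 to 637 CPM in F 5XFAD CIH, without overlap. They overlapped between F WT NX (166 to 221 CPM) and F 5XFAD NX (136 to 355 CPM) and between M WT CIH (154 to 222 CPM) and M 5XFAD CIH (218 to 599 CPM). Among these, Gfap, the filament protein of astrocytes, averaged 0.377 CPM in M WT NX and 387 CPM in M 5XFAD NX, and 3 of 6 astrocyte markers passed as higher and 1 as lower there. Of other cells that express Cd9, oligodendrocyte markers summed to 186 to 338 CPM in M WT NX and 278 to 599 CPM in M 5XFAD NX, and endothelial markers to 58.7 to 216 and 182 to 248 CPM. Endothelial markers summed to 59.4 to 149 CPM in F WT CIH and 171 to 252 CPM in F 5XFAD CIH, without overlap. They overlapped between F WT NX (78.1 to 154 CPM) and F 5XFAD NX (67.0 to 307 CPM). The same held for M WT CIH (70.8 to 149 CPM) and M 5XFAD CIH (119 to 182 CPM). Border macrophage markers summed to 175 to 332 CPM in F WT NX and 85.3 to 158 CPM in F 5XFAD NX. Of the marker genes in M WT NX vs 5XFAD NX, 3 of 7 oligodendrocyte and 1 of 8 endothelial markers passed as higher, where 10.4% of all genes did, and 5 of 7 border macrophage markers as lower, where 7.37% did. Their part in the tetraspanin differences was not tested.

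Bases upstream of the annotated start are shown for the 3 members that passed in all 4 genotype comparisons with all libraries (Tspan14 with the limits given above), so that the ones that rose can be set beside the one that fell. Each run is the 250 bases before the start in RefSeq, build GRCm38.p6, read 5′ to 3′ on the strand of the gene: Cd9 at chr6:125494761-125495010 (minus), Cd63 at chr10:128909095-128909344 (plus) and Tspan14 at chr14:40966897-40967146 (minus). The male table starts Cd63 farther upstream than RefSeq does, at 128900989, so the Cd63 window lies inside the gene as that table gives it. Capitals mark matches, on either strand, to 4 motifs that were searched: the PU.1 core GGAAGT, the E-box CACGTG, the AP-1 site TGANTCA and the GC box GGGCGG.
Cd9: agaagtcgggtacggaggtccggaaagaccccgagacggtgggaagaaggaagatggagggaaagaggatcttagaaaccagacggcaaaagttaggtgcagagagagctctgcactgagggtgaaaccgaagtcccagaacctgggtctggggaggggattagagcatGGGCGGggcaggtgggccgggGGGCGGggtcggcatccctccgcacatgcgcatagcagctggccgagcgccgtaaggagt
Cd63: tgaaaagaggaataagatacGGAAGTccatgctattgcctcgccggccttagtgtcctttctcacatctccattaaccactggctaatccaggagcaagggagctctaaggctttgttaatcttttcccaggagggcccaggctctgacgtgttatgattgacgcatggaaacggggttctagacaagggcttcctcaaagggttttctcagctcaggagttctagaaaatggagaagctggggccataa
Tspan14: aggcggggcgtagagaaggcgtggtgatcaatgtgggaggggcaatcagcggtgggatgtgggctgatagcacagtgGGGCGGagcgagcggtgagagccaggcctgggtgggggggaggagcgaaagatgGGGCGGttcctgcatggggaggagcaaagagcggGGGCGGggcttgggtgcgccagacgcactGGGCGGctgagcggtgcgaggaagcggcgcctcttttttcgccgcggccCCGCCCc

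Tspan14 held 5 GC boxes and Cd9 held 2, at 60 and 81 bases before the start, and Cd63 held none. Cd63 held a PU.1 core 230 bases before the start, which Cd9 and Tspan14 did not. The upstream 250 bases were 61.6% G and C in Cd9, 48.8% in Cd63 and 69.6% in Tspan14. Over all 10 members, 7 held a GC box, 2 a PU.1 core (Cd63 and Cd37), 1 an E-box (Cd37) and 0 an AP-1 site. Among 32851 mouse promoters of the same length, 32.7% held a GC box, 19.7% a PU.1 core, 6.02% an E-box and 6.75% an AP-1 site. Cd9 and Cd63 had none of the 4 motifs in common in this window.

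The male table places Cd9 on chromosome 6 at 125460266 to 125494791 (minus strand, GRCm38), Cd63 on chromosome 10 at 128900989 to 128912822 (plus strand) and Tspan14 on chromosome 14 at 40906445 to 40966807 (minus strand), all protein coding. Cd151 and Tspan4 are neighbours on chromosome 7, at 141467392 to 141471473 and 141475240 to 141493427. Antisense or overlapping genes lie across several members, and whether the counting used strand is not given in the sources used here. Their counts were small beside the members': Gm28809, antisense within Cd9, reached 108 counts where Cd9 had at least 9036. Chid1, which overlaps the end of Tspan4, reached 518 counts where Tspan4 had at least 988, and Gm10575 reached 215 where Cd151 had at least 984, so those 2 are less certain.

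No tetraspanin passed the test for CIH in females. In F WT NX vs WT CIH the log2FC of the 10 genes ran from -0.13 (Cd63) to 0.06 (Tspan4), and in F 5XFAD NX vs 5XFAD CIH from -0.08 (Tspan14) to 0.23 (Cd63). None passed the FDR of edgeR, nor did any gene of the table, of which 565 and 470 had an unadjusted p below 0.05 (3.87% and 3.22%), and DESeq2 called 0 members in both, with 1 and 0 genes in all. Without F 5XFAD NX 4, the log2FC of Cd9 and Cd63 in the 5XFAD comparison was 0.02 ± 0.12 and -0.00386 ± 0.16.

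In WT males, CIH went with lower levels across the family. In M WT NX vs WT CIH, 9 of 10 members fell past the FDR, where 15.0% of 14983 genes were lower and 28.6% changed in either direction. The median log2FC of the 10 was -0.44, against -0.01 over all genes tested, and none was a DEG, against 2.51% of all genes (376, or 621 without M WT NX 1). Tspan14 was the exception, at 381 to 447 CPM in M WT NX and 395 to 474 CPM in M WT CIH (log2FC 0.01 ± 0.08, FDR 0.924). With the replicate block and without a filter 7 members were called, Tspan3 (FDR 0.0501 and 0.166) and Cd53 (FDR 0.0577 and 0.184) being lost, and the Cd53 call held in 2 of 10 fits with a library left out.

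Cd37, a tetraspanin of leukocytes, showed the largest decrease. It read 750, 806, 863, 856 and 935 CPM in M WT NX and 677, 602, 528, 482 and 437 CPM in M WT CIH, with every CIH library below every NX library. Cd37 fell by 0.63 ± 0.11 on the log2 scale (FDR 0.000848). Cd63 fell by 0.56 ± 0.11 (FDR 0.00231), Cd82 by 0.52 ± 0.09 (FDR 0.0011) and Cd9 by 0.52 ± 0.08 (FDR 0.000522), none of them with overlap. Cd81, at 1685 to 2094 CPM in M WT NX and 1290 to 1452 CPM in M WT CIH, fell by 0.42 ± 0.08 (FDR 0.00109). Tspan4, which marks the trailing membrane of migrating cells, fell by 0.45 ± 0.09 (FDR 0.00231), and Cd151, a binder of laminin receptors, by 0.41 ± 0.08 (FDR 0.00209). Tspan3 and Cd53 fell least, by 0.24 ± 0.07 (FDR 0.0176) and 0.24 ± 0.09 (FDR 0.0494), and only Cd53 had libraries that overlapped. The groups did not overlap for 8 of 10 members, where this held, lower in CIH, for 9.02% of all genes.

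These male WT decreases passed in the pair of groups by itself and lost their call with all 4 male groups in 1 fit, where the log2FC were nearly equal but 0 members and 0 genes passed (Cd9 -0.52 with an FDR of 0.0615, Cd37 -0.63 with an FDR of 0.0649). Leaving out any single library kept 8 or 9 members. Several marker lists were lower in the same libraries. The neutrophil markers summed to 232 to 1209 CPM in M WT NX and 107 to 316 CPM in M WT CIH, with 6 of 7 past the FDR as lower, 14 of 20 DAM genes were lower, and 6 of 12 homeostatic genes were lower, against 15.0% of all genes. The homeostatic sum was 42363 to 47131 CPM in M WT NX and 35300 to 40603 CPM in M WT CIH. Genes with counts numbered 18385 to 21676 in M WT NX and 21900 to 33169 in M WT CIH, the latter maximum being M WT CIH 5. The part of these in the tetraspanin differences was not tested.

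In 5XFAD males, none of the 10 passed the test for CIH. M 5XFAD NX vs 5XFAD CIH gave log2FC from -0.02 (Cd82) to 0.32 (Cd63), with FDR of at least 0.995. No gene of the table passed by edgeR's quasi-likelihood test, 473 had an unadjusted p below 0.05 (3.30% of 14334), and DESeq2 called 0 members and 1 gene. Without M 5XFAD NX 4 and M 5XFAD NX 5 the log2FC of Cd9 and Cd63 was -0.01 for each, and 8 of 10 members turned from positive to negative without passing.

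Whether the genotype difference depended on CIH was tested with the interaction term over the 4 groups of a sex. In males the term ran from 0.06 (Tspan14) to 0.88 (Cd63). It draws on the libraries of M WT NX vs WT CIH, so it is not independent of the lower levels there. Its size was 0.74 ± 0.21 for Cd9 (p 0.00208, FDR 0.117), 0.88 ± 0.31 for Cd63 (FDR 0.125), 0.75 ± 0.27 for Cd37 (FDR 0.125), 0.69 ± 0.25 for Tspan4 (FDR 0.127), 0.60 ± 0.20 for Cd81 (FDR 0.121) and 0.58 ± 0.20 for Cd151 (FDR 0.124). None passed the FDR by edgeR's quasi-likelihood test, nor did any of 15813 genes, of which 24.4% had an unadjusted p below 0.05. DESeq2 called 4 members (Cd9, Cd63, Cd81 and Cd151) and 5.98% of all genes, and the quasi-likelihood test without a filter on low counts also called 4 (Cd9, Cd63, Cd37 and Tspan4) and 4.57% of 38365 genes. The likelihood ratio test of edgeR called 0 members and 248 genes (1.57%). Without M 5XFAD NX 4 and M 5XFAD NX 5 the Cd9 and Cd63 terms were 0.50 ± 0.16 (FDR 0.379) and 0.54 ± 0.24 (FDR 0.454), and without M 5XFAD NX 1 alone 5 members and 6.05% of all genes passed. In females, the term ran from -0.06 (Tspan14) to 0.35 (Cd63), with FDR of at least 0.952, 589 genes (3.78%) had an unadjusted p below 0.05, and edgeR and DESeq2 called 0 genes. The female terms of Cd9 and Cd63 were 0.33 ± 0.31 and 0.35 ± 0.41 with all libraries and 0.14 ± 0.17 and 0.12 ± 0.24 without F 5XFAD NX 4.

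**Figure D4:**
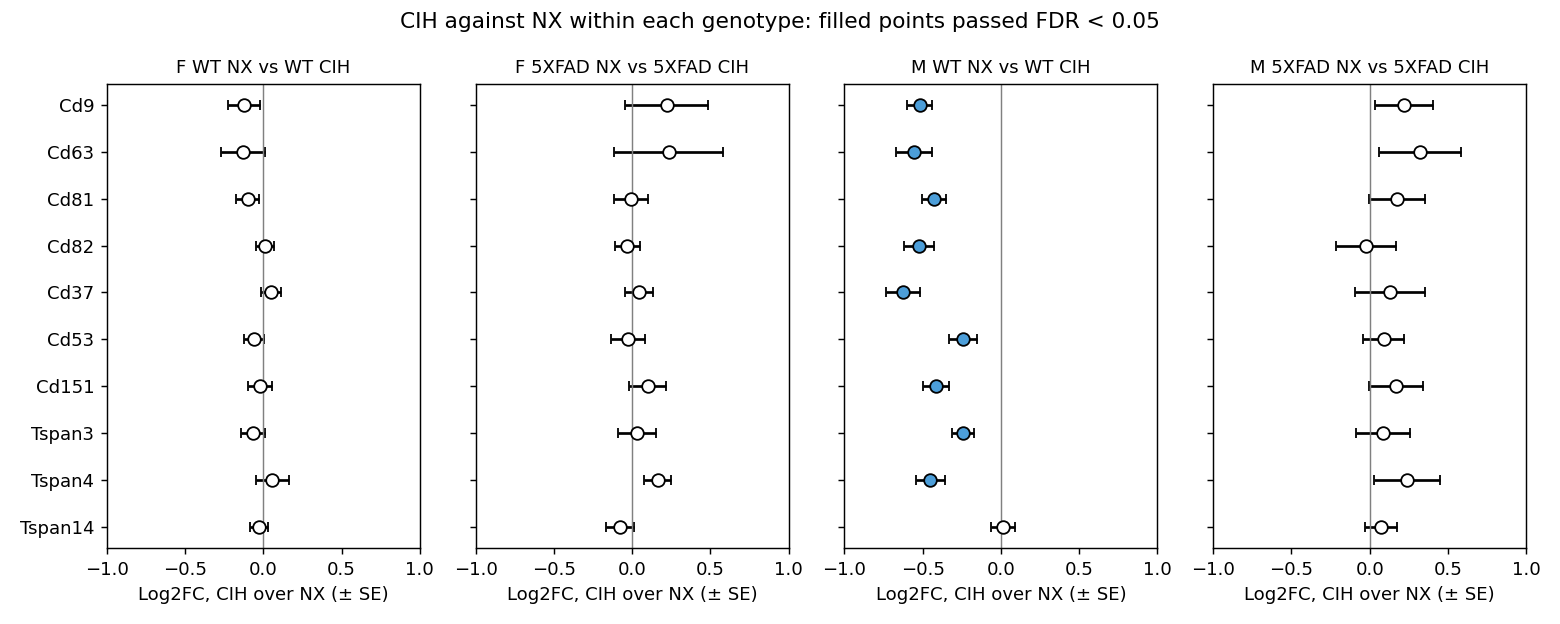
Log2FC of CIH over NX (x axis, points ± SE) for the 10 tetraspanins in WT and 5XFAD of each sex. Filled points passed an FDR of 0.05. In the M WT panel 9 points are filled and lie left of 0 with Tspan14 at 0.01, and the other 3 panels have no filled point.

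Of 21 further tetraspanins, 12 to 14 passed the low-count filter. Past the FDR, 5 rose and 3 fell in M WT CIH vs 5XFAD CIH (25.3% and 23.7% of all genes), 2 and 4 in M WT NX vs 5XFAD NX (10.4% and 7.37%), 4 and 4 in F WT CIH vs 5XFAD CIH (26.2% and 25.7%), and 1 and 1 in F WT NX vs 5XFAD NX (7.26% and 6.61%), so several of these counts lay near the share of all genes. Without F 5XFAD NX 4 the last counts were 5 and 4 (21.8% and 22.2% of all genes), and without M 5XFAD NX 4 and 5 the male NX counts were 3 and 4 (17.9% and 15.6%). Tspan5, which like Tspan14 binds Adam10, was higher in all 4 comparisons, with log2FC of 1.00 ± 0.21 (FDR 0.0219) and 1.13 ± 0.11 (FDR 2.86e-06) in females and 0.92 ± 0.12 (FDR 0.000192) and 1.23 ± 0.12 (FDR 9.75e-07) in males, NX before CIH. It went from 11.8 to 27.6 CPM on average in the last of these. Tspan17, of the same subgroup, rose from 2.93 to 10.2 CPM in M WT CIH vs 5XFAD CIH (1.80 ± 0.20, FDR 4.50e-06), and its log2FC was 1.39 ± 0.27 in M WT NX vs 5XFAD NX (FDR 0.00287). In the comparisons given, Tspan5 and Tspan17 thus went opposite to Tspan14, whose calls under NX carry the limits stated above.

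Tspan18 and Upk1b fell most among the further tetraspanins. Tspan18 in M WT NX vs 5XFAD NX went from 54.2 to 15.4 CPM (log2FC -1.81 ± 0.20, FDR 4.57e-05) and Upk1b from 203 to 70.1 CPM (log2FC -1.53 ± 0.17, FDR 4.49e-05). In F WT CIH vs 5XFAD CIH their log2FC was -2.11 ± 0.10 (FDR 3.14e-09) and -1.61 ± 0.10 (FDR 3.52e-08). Both missed the FDR in F WT NX vs 5XFAD NX, at 0.0627 for Tspan18 and 0.0514 for Upk1b, and passed without F 5XFAD NX 4 (log2FC -2.01 ± 0.24, FDR 0.000154, and -1.68 ± 0.22, FDR 0.000242). Tspan13 and Tspan33 were lower by smaller steps, with log2FC of -0.36 ± 0.09 for Tspan13 in F WT NX vs 5XFAD NX (FDR 0.0326) and -0.59 ± 0.16 for Tspan33 in M WT NX vs 5XFAD NX (FDR 0.0191).

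**Figure D5:**
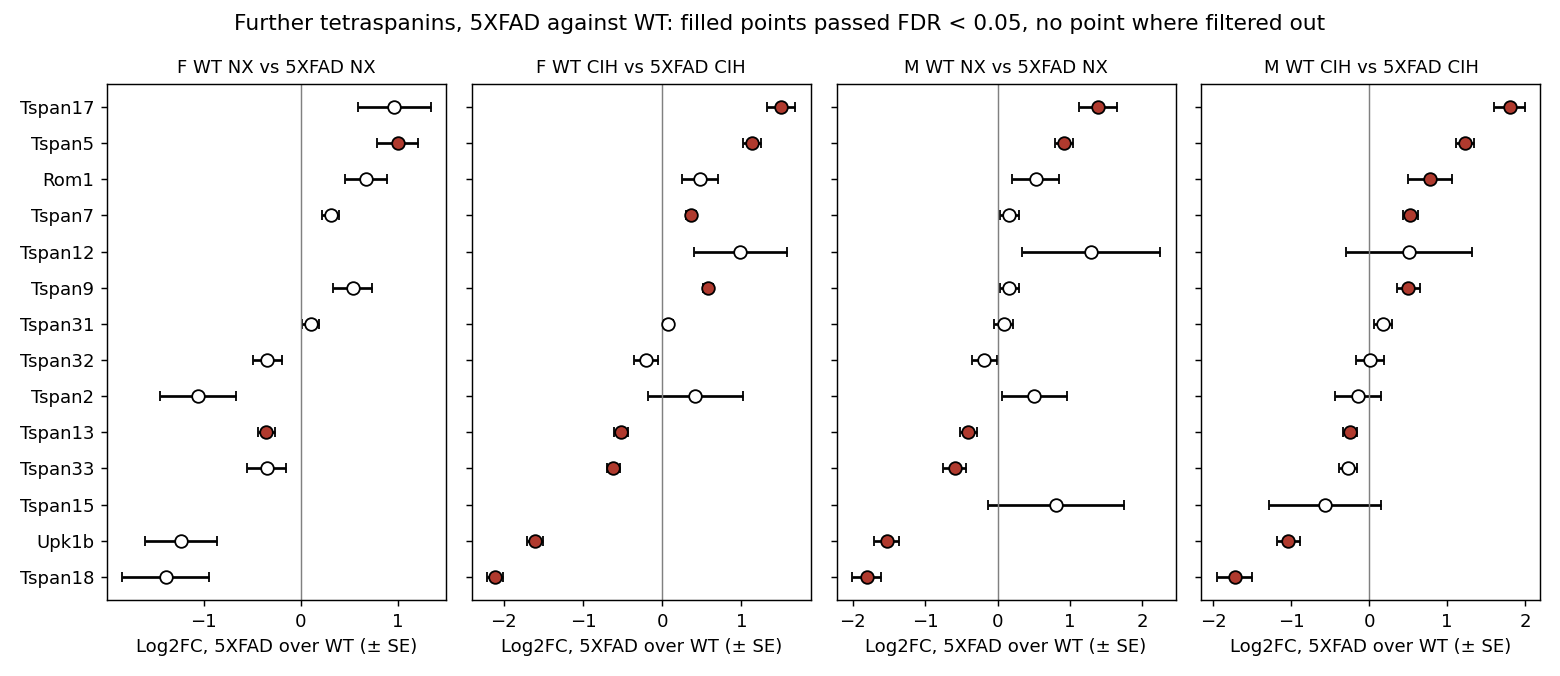
Log2FC of 5XFAD over WT (x axis, points ± SE) for the further tetraspanins that passed the low-count filter, ordered by their value in M WT CIH vs 5XFAD CIH. Filled points passed an FDR of 0.05. Tspan5 is filled to the right in all 4 panels, and Tspan18 and Upk1b are filled to the left in 3 of them.

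Of 15 tetraspanin partners, 2 were higher and 0 lower in F WT NX vs 5XFAD NX (7.26% and 6.61% of all genes), 4 and 4 in F WT CIH vs 5XFAD CIH, 2 and 3 in M WT NX vs 5XFAD NX (10.4% and 7.37%), and 3 and 6 in M WT CIH vs 5XFAD CIH. Under CIH, 26.2% of all genes were higher and 25.7% lower in females and 25.3% and 23.7% in males, so the female counts lay at the share of all genes. Without the libraries that stood apart, 3 were higher and 4 lower under NX in each sex, where 21.8% and 22.2% of all genes were in females and 17.9% and 15.6% in males. Clec7a, the beta-glucan receptor Dectin-1 that tetraspanins organise and itself a DAM gene, had log2FC from 3.32 to 4.66. Ptgfrn, a direct partner of Cd9 and Cd81, was also higher in all 4, with log2FC of 0.73 ± 0.18 (FDR 0.0346) and 0.95 ± 0.07 (FDR 2.17e-07) in females and 0.81 ± 0.14 (FDR 0.00141) and 0.92 ± 0.10 (FDR 3.43e-06) in males. Igsf8, its relative, passed with all libraries under CIH, at 0.35 ± 0.05 in females (FDR 0.00014) and 0.80 ± 0.11 in males (FDR 5.61e-05), and it passed under NX without the libraries that stood apart (Igsf8 0.35 ± 0.07, FDR 0.00205, in females and 0.58 ± 0.11, FDR 0.00106, in males). Adam10 was lower under CIH, with log2FC of -0.23 ± 0.06 in females (FDR 0.00554) and -0.56 ± 0.09 in males (FDR 0.000157), and under NX it did not pass with all libraries (-0.15 ± 0.10, FDR 0.29, in females and -0.25 ± 0.16, FDR 0.356, in males), while in males without M 5XFAD NX 4 and 5 it was -0.55 ± 0.10 (FDR 0.000463). Icam1, the adhesion receptor, was lower in 3 comparisons, among them M WT CIH vs 5XFAD CIH (-0.71 ± 0.12, FDR 0.00027).

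Of 8 lysosomal membrane genes, 8 were higher in F WT CIH vs 5XFAD CIH (26.2% of all genes), 6 in M WT CIH vs 5XFAD CIH (25.3%), 4 in M WT NX vs 5XFAD NX (10.4%) and 1 in F WT NX vs 5XFAD NX (7.26%), and none was lower past the FDR. Without the libraries that stood apart, 5 were higher under NX in females (21.8% of all genes) and 6 in males (17.9%). Cd68, a lysosomal glycoprotein of phagocytes, went from 544 to 2632 CPM in M WT CIH vs 5XFAD CIH (log2FC 2.28 ± 0.18, FDR 1.99e-07). Lamp1, the main lysosomal membrane protein, went from 946 to 1870 CPM there (0.99 ± 0.09, FDR 4.17e-07). Atp6v0d2, a subunit of the proton pump, averaged 0.143 CPM in F WT CIH and 44.3 CPM in F 5XFAD CIH. Under NX it overlapped between the female groups, at 0.116 to 32.6 CPM in F WT NX and 0.118 to 62.4 CPM in F 5XFAD NX. Of the genes of exosome formation and release, 0 were higher and 1 lower in F WT NX vs 5XFAD NX, 5 and 2 in F WT CIH vs 5XFAD CIH, 3 and 0 in M WT NX vs 5XFAD NX, and 4 and 3 in M WT CIH vs 5XFAD CIH, of 15 to 16 tested, where the shares of all genes, higher and lower, were 7.26% and 6.61%, 26.2% and 25.7%, 10.4% and 7.37%, and 25.3% and 23.7% in that order. Without the libraries that stood apart, 6 were higher and 2 lower of 16 under NX in females (21.8% and 22.2% of all genes), and 5 and 1 of 14 in males (17.9% and 15.6%). Sdcbp, the adaptor syntenin that binds the tail of Cd63, had a log2FC of 0.65 ± 0.09 in M WT NX vs 5XFAD NX (FDR 0.000315) and 0.66 ± 0.07 in F WT CIH vs 5XFAD CIH (FDR 5.90e-06). Rab27a, which docks exosome-bearing endosomes at the surface, had 0.32 ± 0.10 (FDR 0.0427) and 0.41 ± 0.06 (FDR 3.79e-05) in the same comparisons. Rab35 was lower in F WT NX vs 5XFAD NX (-0.23 ± 0.07, FDR 0.0488) and F WT CIH vs 5XFAD CIH (-0.37 ± 0.05, FDR 6.15e-05).

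The genes whose pattern was most like that of Cd9 were Gsto1, Nsa2, Trem2, Rpl9 and Tmed3, by the root mean square difference of 8 group-mean log2 CPM values centred within each sex (0.0261 for Gsto1 to 0.0440 for Tmed3, over 13445 genes). For Cd63 they were Pld3, Ephx1, Ndufa1, Gpr65 and Tpi1 (0.0746 to 0.103). Cd63 itself ranked 1454 for Cd9 and Cd9 ranked 389 for Cd63, at a difference of 0.379, because the measure counts the size of a change as well as its direction.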

How the data were processed

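RNA was sequenced from 39 libraries of Cd11b+ cells (19 female, 20 male), and the deposited tables hold read counts per gene and FPKM. According to the submitters' processing notes the authors aligned reads with HISAT2 to GRCm38 (mm10). The counting tool, annotation release and strand setting are not given in the sources used here. The authors' deposited FPKM values were divided by the column totals in females, and in males by totals rescaled by 0.794 to 1.20, which followed TMM factors, so FPKM were compared within a sex only.

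Counts were tested with edgeR 4.0.16 in R 4.3.3 (TMM, quasi-likelihood F test) on every gene with CPM above 1 in at least 3 compared samples. Each fit held the groups compared, and the interaction fit held the 4 groups of a sex. FDR is Benjamini-Hochberg over all genes tested, with a limit of 0.05, and DEGs also had an absolute log2FC above 1. The SE is the log2FC divided by the root of F. CPM are TMM-scaled over the libraries of a sex. Alternatives were DESeq2 1.42.0, limma 3.58.1 on log2(FPKM + 1), other filters and scalings, and leaving out each library. The script was tested on simulated data.

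The members and lists were chosen with earlier results of these data known. All 10 members are named. Of each further list, the genes named are among the 3 of lowest p each way in a genotype comparison, and the genes most like Cd9 and Cd63 are the 5 of smallest difference. Depth was 13457293 to 25906121 counts. Of 76 replicate pairs, none agreed within sampling noise (lowest chi-square per degree of freedom 4.86). Replicate numbers of the labels showed no clear pairing of the samples: the correlations of same-numbered deviations ran from -0.55 to 0.31, and no comparison had all pairs above 0.1. In F 5XFAD NX vs 5XFAD CIH and M WT CIH vs 5XFAD CIH, 3 of 5 pairs were above 0.1. With 4 or 5 pairs per comparison, this check cannot exclude a shared batch. Promoters came from RefSeq (GRCm38.p6), which matched 10 of 10 members.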

Additional observations from a re-analysis of the deposited data

Results flagged for a closer look

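In 5 of 80 sets of 1 gene in 1 group, a single library lay far from the others of its group (Dixon's test), where chance gives about 1 in 20. Cd63 was 1726.6 CPM in M 5XFAD CIH 5, against 809.1 to 1063.8 CPM in the other 4 libraries. Cd9 was 669.8 CPM in M WT CIH 1, against 571.1 to 597.5 CPM. Cd151 was 67.0 CPM in M WT CIH 5, against 77.1 to 77.8 CPM. F 5XFAD NX 4 was low for Cd81, at 663.8 CPM against 857.5 to 913.3, and for Tspan3, at 79.7 CPM against 113.5 to 125.3.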

How the results depend on the processing

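Cd9 and Cd63 stayed higher and Tspan14 lower in 5XFAD under every setting run in all 4 genotype comparisons, and what varied was the call. In F WT NX vs 5XFAD NX the count of members called, 4, was 2 with library size alone, 2 without a filter and 0 with the replicate block, and the count of DEGs, 1, was 2 with DESeq2, 2 without a filter and 0 with the block. Leaving out 1 library gave 0 to 4 members and 0 to 2 DEGs there. M WT NX vs 5XFAD NX had 6 members and 1 DEG with library size alone, and 1 to 2 DEGs with a library left out. In M WT CIH vs 5XFAD CIH, 5 were called with library size alone. In M WT NX vs WT CIH the count was 0 with all 4 groups in 1 fit. In the male interaction, 4 were called with DESeq2, 4 without a filter and 0 to 5 with a library left out. The block changed no other count of members by over 1.5 times. Library size alone moved the median log2FC of all genes to between -0.43 and 0.09. The cause of these changes was not tested. Leaving out M 5XFAD NX 4 and 5 together, and adding Cd63-ps counts to Cd63, were chosen after seeing the data. In F WT NX vs 5XFAD NX the genes past the FDR numbered 2013, against 3509 with DESeq2, 1311 with library size alone, 4622 with 4 groups in 1 fit and 7 with the block. Without F 5XFAD NX 4 they numbered 6229, and 43 at the lowest with another library left out. Other counts of genes past the FDR moved in M WT NX vs 5XFAD NX (2638, against 1310 with the block and 4792 without M 5XFAD NX 4 and 5), M WT NX vs WT CIH (4279, against 0 with 4 groups in 1 fit) and the male interaction (0, against 945 with DESeq2, 248 with the likelihood ratio test, 1754 without a filter and 0 to 953 with a library left out). F WT NX vs WT CIH had 0 genes, against 22 without a filter and 1 with DESeq2. The DEGs of the 4 genotype comparisons, 869, 1932, 1224 and 2764, numbered 457, 1020, 708 and 1571 with limma on FPKM. The 869 of F WT NX vs 5XFAD NX became 7 with the block and 1330 with 4 groups in 1 fit. Without F 5XFAD NX 4 these DEGs numbered 1880, and without F WT NX 3 they numbered 27. The DEGs of M WT NX vs WT CIH, 376, numbered 621 without M WT NX 1, 639 without a filter, 126 with limma and 0 with 4 groups in 1 fit. Leaving out M 5XFAD NX 4 and 5, likewise chosen after seeing the data for the further lists, turned Arf6 to 0.016 and Npc1 to -0.22 in M WT NX vs 5XFAD NX. Depth left Cd151, the lowest count, at 909 or more.

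With library size alone, log2FC turned sign for F WT NX vs 5XFAD NX Cd81 -0.11, Tspan3 -0.10 and F WT CIH vs 5XFAD CIH Cd81 -0.038, Cd151 -0.11, Tspan3 -0.023 and F WT NX vs WT CIH Cd151 0.00179 and M WT NX vs 5XFAD NX Tspan3 -0.086 and M WT CIH vs 5XFAD CIH Cd82 -0.22, Cd53 -0.17 and M genotype by treatment interaction Tspan14 -0.11. With limma on FPKM, log2FC turned sign for F WT NX vs 5XFAD NX Cd81 -0.11, Tspan3 -0.100 and F WT CIH vs 5XFAD CIH Cd81 -0.035, Cd151 -0.10, Tspan3 -0.023 and M 5XFAD NX vs 5XFAD CIH Cd82 0.014. With DESeq2, log2FC turned sign for F WT CIH vs 5XFAD CIH Cd53 0.00418 and M WT NX vs 5XFAD NX Cd151 0.00162. Without a filter, log2FC turned sign for F WT NX vs WT CIH Cd82 -0.011 and F genotype by treatment interaction Cd37 0.016. With the replicate block, log2FC turned sign for F WT NX vs WT CIH Cd82 -0.020 and F 5XFAD NX vs 5XFAD CIH Cd81 0.000900 and M 5XFAD NX vs 5XFAD CIH Cd82 0.014 and F genotype by treatment interaction Cd37 0.00473. With at least 10 counts in every sample, log2FC turned sign for M WT NX vs 5XFAD NX Cd151 0.00202. Without M 5XFAD NX 4 and M 5XFAD NX 5, log2FC turned sign for M WT NX vs 5XFAD NX Cd81 0.20, Cd37 0.046, Cd151 0.22, Tspan4 0.063 and M 5XFAD NX vs 5XFAD CIH Cd9 -0.00975, Cd63 -0.00913, Cd81 -0.058, Cd37 -0.16, Cd53 -0.024, Cd151 -0.041, Tspan3 -0.10, Tspan4 -0.033 and M genotype by treatment interaction Tspan14 -0.026. Leaving out 1 library turned the direction of these uncalled log2FC (lowest to highest): in F WT NX vs 5XFAD NX Cd37 -0.083 to 0.0023, Cd53 -0.10 to 0.00748, Cd151 -0.10 to 0.038. In F WT CIH vs 5XFAD CIH Cd53 -0.044 to 0.044, Tspan4 -0.10 to 0.026. In F WT NX vs WT CIH Cd82 -0.024 to 0.038, Cd151 -0.080 to 0.013, Tspan4 -0.014 to 0.12. In F 5XFAD NX vs 5XFAD CIH Cd63 -0.00386 to 0.36, Cd81 -0.077 to 0.025, Cd82 -0.079 to 0.010, Cd53 -0.080 to 0.034, Tspan3 -0.065 to 0.078. In M WT NX vs 5XFAD NX Cd81 -0.16 to 0.062, Cd151 -0.14 to 0.11. In M WT NX vs WT CIH Tspan14 -0.031 to 0.040. In M 5XFAD NX vs 5XFAD CIH Cd82 -0.15 to 0.082, Tspan3 -0.00684 to 0.17. In F genotype by treatment interaction Cd37 -0.054 to 0.026, Cd53 -0.030 to 0.086, Tspan3 -0.00283 to 0.14, Tspan14 -0.096 to 0.00548. In M genotype by treatment interaction Tspan14 -0.00093 to 0.10.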
